A study of Mus musculus with 24 samples.

Results

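Il1a and Il1b encode interleukin-1 alpha and interleukin-1 beta, a pair of secreted cytokines that signal through the same receptor. Activated macrophages are a main source of both, and Il1b is a textbook example of a gene that lipopolysaccharide (LPS), a bacterial cell wall component, induces within the first hour. The genes lie next to each other on mouse chromosome 2 and are both transcribed from the minus strand, so that each gene starts at its high-coordinate edge. H3K4me3 is a mark of active promoters, H3K4me1 of enhancers whether active or not, H3K27ac of active promoters and enhancers, and H3K36me3 of gene bodies that polymerase has crossed. Ser2P is the elongating form of RNA polymerase II (Pol II), named for the phosphorylated serine in its tail, and is known to build up towards gene ends.

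The locus was taken as chromosome 2, 129100000 to 129230000 on the mm9 build, with Il1a near 129.125 to 129.136 Mb and Il1b near 129.190 to 129.197 Mb. Its members are all ChIP-seq peaks (chromatin immunoprecipitation followed by sequencing) that overlap this window by at least 1 bp, which gave 110 of the 756484 peaks in the 24 lists. Of the 24 libraries, 21 had at least 1 peak there. The gene edges are known only to the nearest kb, so distances from them carry that uncertainty. Positions are on mm9 throughout, except for the promoter sequences. In the GRCm38 gene table the next gene below Il1a is Ckap2l, a mitotic spindle gene. That table also places the noncoding gene Gm14023 over Il1a and the noncoding gene Il1bos over Il1b. ChIP-seq carries no strand, so marks over those overlaps cannot be told apart by gene.

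The cells were primary macrophages grown from the bone marrow of FVB/Hsd mice and used at day 7 of differentiation, after retroviral infection and puromycin selection. Their retrovirus held either 1 hairpin that depletes Wdr82 (shWdr82) or a control insert, and they were left untreated or given LPS at 10 ng/ml. The protein WDR82 belongs to the SET1 complexes, which methylate H3K4, and to a PNUTS phosphatase complex that acts in transcription termination. Empty vector (LMP) cells were the control for H3K4me3 and H3K27ac, and scrambled hairpin cells for H3K4me1, H3K36me3, total Pol II and Ser2P. The titles give 4 h of LPS for the former pair of antibodies and 45 min for the other 4, whereas the treatment text gives 4 h alone. Each group had 1 library, so nothing below could be checked in replicates and no test was run. The lists held 14420 to 65149 peaks, and read depth is unknown, so a peak missing from a list is not a measured absence of signal. The depletion of Wdr82 and macrophage marker genes were not analysed here.

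The promoter sequences are shown first because the peaks over the gene starts, or their absence, are the main subject of what follows. They are the RefSeq promoters of both genes (GRCm38.p6, minus strand, C57BL/6J reference and not the FVB strain), from 250 bases before the annotated start to 50 after it, at chr2:129309923-129310222 for Il1a and chr2:129371090-129371389 for Il1b. These coordinates do not share the numbering of the mm9 peaks. Capitals mark TATAAA, the core of the TATA box.
Il1a: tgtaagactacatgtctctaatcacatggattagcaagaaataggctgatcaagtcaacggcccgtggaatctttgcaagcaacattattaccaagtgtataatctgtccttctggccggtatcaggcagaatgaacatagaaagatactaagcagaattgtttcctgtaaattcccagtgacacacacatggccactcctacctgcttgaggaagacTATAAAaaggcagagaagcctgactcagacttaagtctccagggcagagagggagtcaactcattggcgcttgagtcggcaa
Il1b: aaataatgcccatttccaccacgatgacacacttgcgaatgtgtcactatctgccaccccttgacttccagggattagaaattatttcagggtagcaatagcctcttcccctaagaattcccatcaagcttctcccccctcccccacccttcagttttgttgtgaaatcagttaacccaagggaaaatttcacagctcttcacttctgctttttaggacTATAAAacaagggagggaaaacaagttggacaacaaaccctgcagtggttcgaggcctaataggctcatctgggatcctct

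Both promoters held TATAAA on the gene strand, with its first base 32 bases before the start in Il1a and 31 bases before it in Il1b. Of 32851 promoters of the same length, 13.6% held these letters on either strand. The other motifs were likewise searched on both strands. GAGGAA, the core bound by the macrophage factor PU.1, was found in Il1a and not in Il1b, and in 28.3% of all promoters. TGANTCA, the AP-1 motif, was found in Il1a and not in Il1b, and in 7.81% of all promoters. TTNNGNAA, which is like the C/EBP motif, was found in both, with the Il1a match overlapping GAGGAA, and in 40.7% of all promoters. GGG and CC with 5 bases of any kind between them, which is like the NF-kB motif, was in neither window and in 50.8% of all promoters, which says only that these letters are not in these 300 bases.

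H3K4me3 was listed at neither gene start in any of the 4 libraries. The only H3K4me3 peak of the window lay just below Il1a, on the side of Ckap2l, and had a score of 3100 in all 4 lists. Scores are the authors' and come from their peak caller, and 44.1% to 47.7% of the peaks of these lists scored at least 3100, a value at which scores pile up. This peak ended 1145 bp below the low edge of Il1a in empty vector untreated cells, 1111 bp below it in empty vector LPS cells, 1160 bp in shWdr82 untreated cells and 1153 bp in shWdr82 LPS cells. It was 2379 bp wide in empty vector untreated cells, 1992 bp after 4 h of LPS, 1726 bp in shWdr82 untreated cells and 1799 bp in shWdr82 LPS cells. It was narrower in each shWdr82 library than in the empty vector library of the same treatment, by less than 1.5-fold. Among windows of 130 kb tiled over the genome, H3K4me3 covered length was lower by at least as much in 33.8% untreated and 24.3% with LPS. Such a difference was thus common. Seen from Il1b, this peak was also the nearest H3K4me3 peak, 66.1 to 66.2 kb away, and the next one above the gene lay 221 kb away in every library.

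H3K27ac spread over most of the locus with 4 h of LPS. In empty vector cells it covered 16.3 kb of the 130 kb window untreated and 83.0 kb with LPS, a 5.08-fold difference. In shWdr82 cells it covered 18.2 kb untreated and 89.9 kb with LPS, a 4.92-fold difference. The covered length was thus several times larger with LPS in each vector. Between the vectors it differed 1.12-fold untreated and 1.08-fold with LPS. To set this against the rest of the genome, all chromosomes were tiled in windows of 130 kb and a tile was counted when its covered length differed by at least 1.5-fold. LPS tiles were higher by that rule in 31.5% of 9390 tiles in empty vector cells and 25% of 9431 tiles in shWdr82 cells, so passing 1.5-fold was common. A gain as large as that of the locus, 66.7 kb in empty vector and 71.6 kb in shWdr82 cells, was found in 19 tiles (0.202%) and 5 tiles (0.0530%). The shWdr82 length exceeded the empty vector length by 1.90 kb untreated, as in 21.3% of tiles, and by 6.84 kb with LPS, as in 0.843%. The 6.84 kb is the 1.08-fold difference, short of 1.5-fold. As long a covered length in shWdr82 LPS cells was found in 0.148% of tiles, so few tiles could be compared at that length. Covered length rises with whatever widens the calls of a library, and the median tile ratio of LPS to untreated was 1.00 in empty vector and 0.866 in shWdr82 cells.

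**Figure D1:**
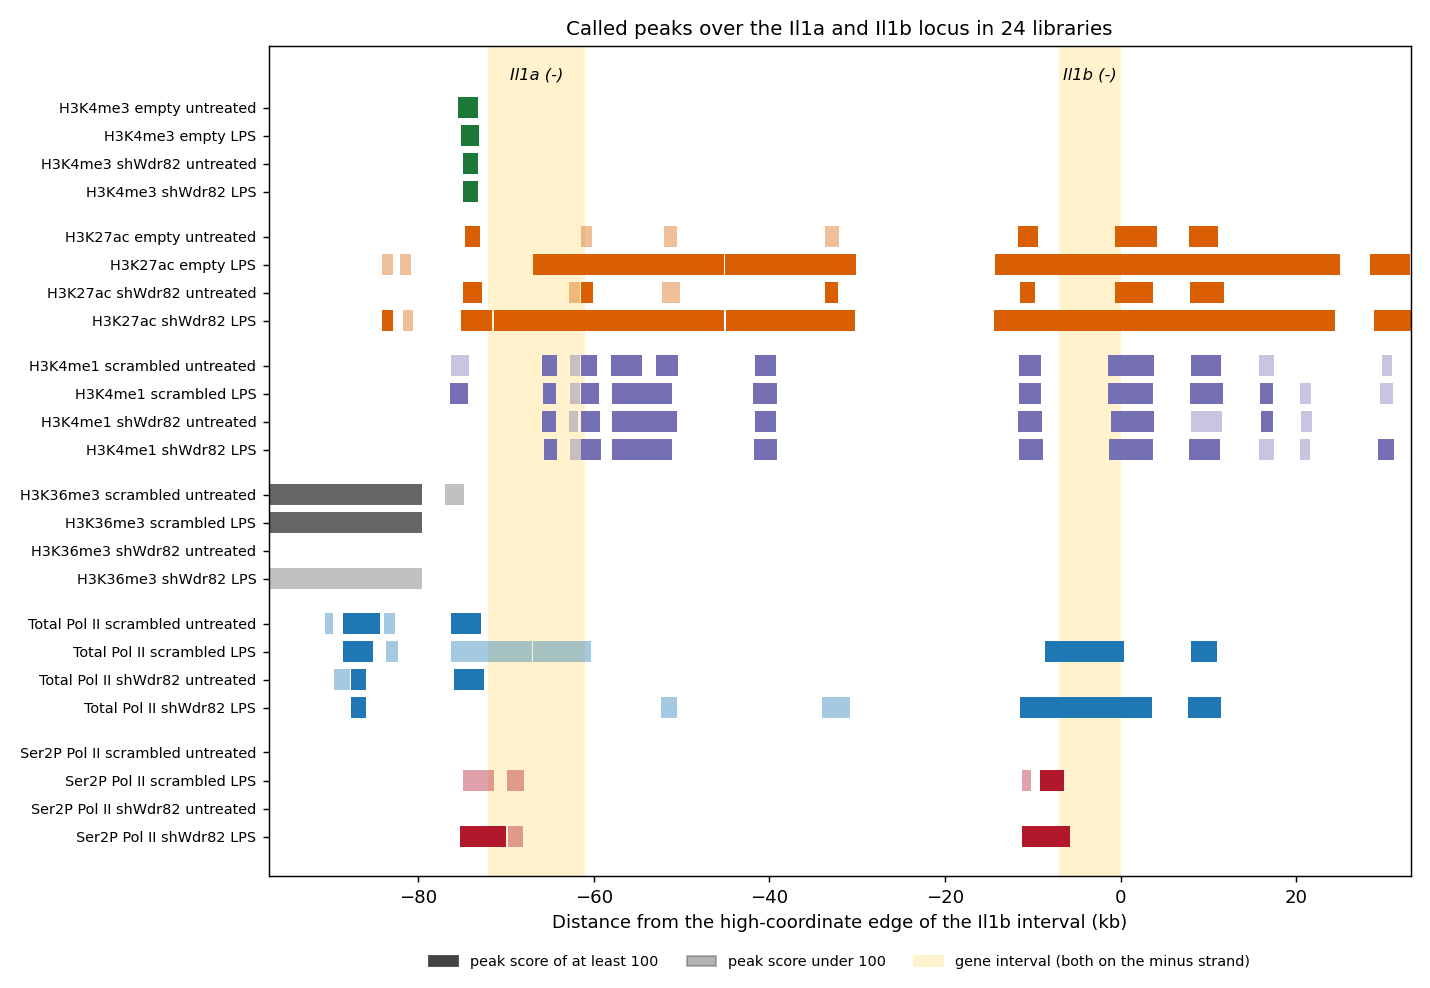
Peaks of the 24 libraries over the window, 1 row per library, as distance in kb from the high-coordinate edge of Il1b. Both genes read from right to left. With LPS the H3K27ac rows fill most of the locus, no H3K4me3 peak lies over either gene, and Ser2P peaks are listed in the LPS libraries alone.

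The widest H3K27ac peak spanned Il1b. In empty vector LPS cells it ran from 129182629 to 129222000, 39372 bp, and only 36 peaks of that list (0.124%) were as wide. In shWdr82 LPS cells it ran from 129182552 to 129221430, 38879 bp, and 34 peaks (0.119%) were as wide. Its edges lay within 1 kb of each other in the vectors, 7372 and 7449 bp below the low edge of Il1b and 25000 and 24430 bp above its high edge. Of the 36 peaks as wide in empty vector LPS cells, 9 overlapped no H3K4me3 peak of any list, as did 7 of the 34 in shWdr82 cells. Among the 1737 and 1352 H3K27ac peaks of at least 10000 bp in these lists the shares were 46.9% and 46.1%, so a wide acetylated region without an H3K4me3 peak was common.

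The second H3K27ac block ran from Il1a into the space between the genes. In empty vector LPS cells it began inside Il1a, at 129130082, and ended at 129166806, in a pair of peaks of 21711 and 14902 bp with a gap of 112 bp. In shWdr82 LPS cells the same pair of peaks was 26192 and 14659 bp wide and began at 129125662, with a further peak of 3612 bp below it across the low edge of Il1a. H3K27ac therefore covered 53.8% of the Il1a interval in empty vector LPS cells and 98.1% in shWdr82 LPS cells, against 4.32% and 15.1% untreated. The Il1b interval was covered to 100% in both LPS libraries and to 9.04% and 9.54% untreated. A stretch of 15.8 kb between the blocks had no H3K27ac peak in either LPS library, from 129166807 to 129182628 in empty vector cells.

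Before LPS, H3K27ac was already listed at points that the blocks later covered. Empty vector untreated cells had 7 peaks in the window, of which 6 lay under an LPS peak of the same vector, and shWdr82 untreated cells had 8, all under an LPS peak. Over the whole lists 69.4% and 67.4% of untreated peaks did. The empty vector exception ran from 129122382 to 129124060, at the H3K4me3 site below Il1a, with a score of 210. There the score was 237 in shWdr82 untreated and 261 in shWdr82 LPS cells, and empty vector LPS cells had no peak. The highest-scoring untreated peak lay upstream of Il1b, from 129204796 to 129208097, with a score of 2427 in empty vector and 1928 in shWdr82 cells. The peak over the Il1b start, from 129196368 to 129201078, scored 1712 and 1556. The peak just below Il1b, from 129185333 to 129187603, scored 708 and 499. All other untreated H3K27ac peaks of the window scored 56.1 to 237, the one at the Il1a start 70.2 in empty vector and 104 in shWdr82 cells. In both vectors the 3 highest scores before LPS thus lay at or beside Il1b. Of the 7 merged H3K27ac regions of the window, 3 were held by both LPS libraries alone, against 12.4% of all 39645 merged regions. One of these lay at the high end of the window and ran on beyond it, with a highest score of 3100 in both LPS libraries. Its peaks that overlapped the window scored 1918 in empty vector and 461 in shWdr82 cells. The others were small peaks below Il1a that scored 60.4 to 115.

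**Figure D2:**
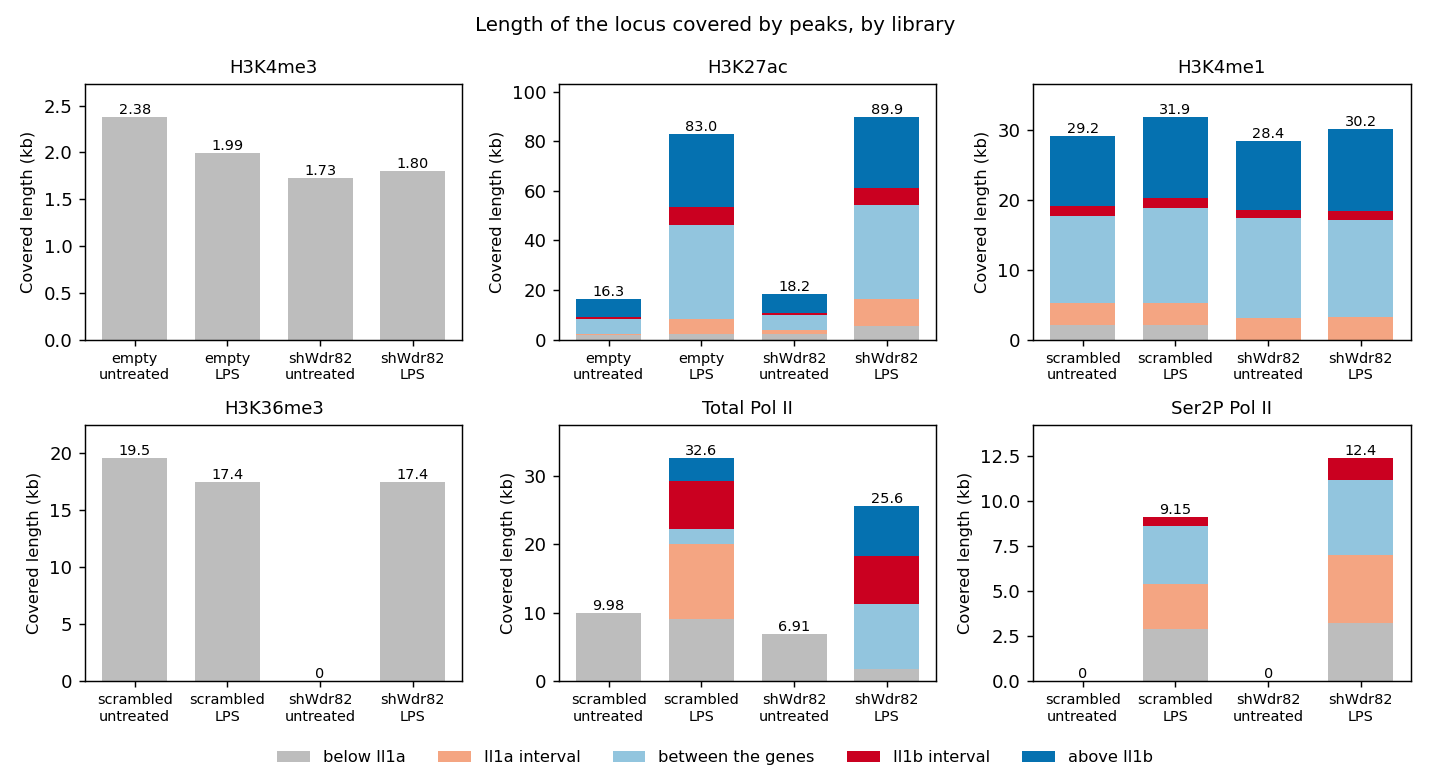
Length of the window covered by peaks in each library, in kb, split by position relative to the genes; each bar is 1 library. H3K27ac reached 83.0 and 89.9 kb with LPS, H3K4me1 stayed between 28.4 and 31.9 kb, and Ser2P was 0 in both untreated libraries.

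H3K4me1 differed little between the 4 libraries. It covered 29.2 kb in scrambled untreated, 31.9 kb in scrambled LPS, 28.4 kb in shWdr82 untreated and 30.2 kb in shWdr82 LPS cells, and no pair differed by 1.5-fold. Of 12 merged regions, 9 were held by all 4 libraries, against 52.8% of 76449 over the genome. The highest score was at the region just below Il1b, from 129185283 to 129188112, which is the gene-end side. It scored 1197 in scrambled untreated, 1522 in scrambled LPS, 853 in shWdr82 untreated and 1118 in shWdr82 LPS cells, and 4.24% to 6.40% of the peaks of each list scored as high. The region over the Il1b start, from 129195516 to 129200839, scored 381, 821, 380 and 591 in the same order of libraries. Between the genes, the region from 129138932 to 129146626 scored at most 672, 955, 193 and 357. In these 3 regions the score was higher in the LPS library of each vector, as it was from 129204805 to 129208638 (286, 301, 91.2 and 259). Other regions scored higher with LPS in scrambled cells and lower in shWdr82 cells. These were 129155152 to 129157826 (192, 672, 277 and 223), 129212756 to 129214437 (98.1, 163, 114 and 75.9) and 129134170 to 129135485 (53.5, 77.5, 76.5 and 65.6). Scores depend on depth, which is unknown.

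At Il1a, H3K4me1 lay over the gene start and inside the gene. The region from 129135487 to 129137761, over the start, scored 238 in scrambled untreated, 337 in scrambled LPS, 245 in shWdr82 untreated and 703 in shWdr82 LPS cells. A region inside the gene, from 129131082 to 129132843, scored 454, 377, 106 and 315. The former scored higher with LPS in both vectors and the latter in shWdr82 cells alone. The region below Il1a, from 129120673 to 129122762, was held by both scrambled libraries, with scores of 71.4 and 106, and by neither shWdr82 library. It was 1 of 12 regions, and this pattern made up 4.63% of the genome's H3K4me1 regions. It overlapped the H3K4me3 peak on the Ckap2l side.

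Of the 9 H3K4me1 regions held by all 4 libraries, 5 overlapped an H3K27ac peak in empty vector untreated cells and 6 in shWdr82 untreated cells, and 9 did with LPS in both vectors. Over the genome, the share of such regions with H3K27ac was 56.8% and 58.1% untreated, and 48.7% and 47.7% with LPS. The regions that had H3K27ac with LPS alone in both vectors lay inside Il1a (129131082 to 129132843), between the genes (129155152 to 129157826) and above Il1b (129212756 to 129214437). Wide peaks overlap more regions than narrow ones, so these counts and the covered length of H3K27ac are not separate observations. None of the 9 regions overlapped an H3K4me3 peak in any library, whereas 25.2% to 26.8% of such regions did over the genome. Total Pol II overlapped 0 of the 9 in both untreated libraries, 5 in scrambled LPS and 4 in shWdr82 LPS cells, against genome shares of 34.2%, 32.0%, 26.8% and 28.3% in the same order. Part of these counts rests on low-scoring peaks. The regions at Il1a in scrambled LPS cells overlapped a peak with a score of 80.9. The region from 129138932 to 129146626 in shWdr82 LPS cells overlapped a peak with a score of 95.9. Ser2P overlapped 1 of the 9, the region below Il1b, in each LPS library and none untreated. Its genome shares were 8.12% in scrambled LPS, 10.5% in shWdr82 LPS, 8.33% in scrambled untreated and 7.84% in shWdr82 untreated cells. Counts of 1 or 0 among 9 regions are near these shares. The other 2 regions above Il1b, from 129217364 to 129218753 and from 129226301 to 129228075, were each held by 3 libraries with scores of 53.2 to 148.

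**Figure D3:**
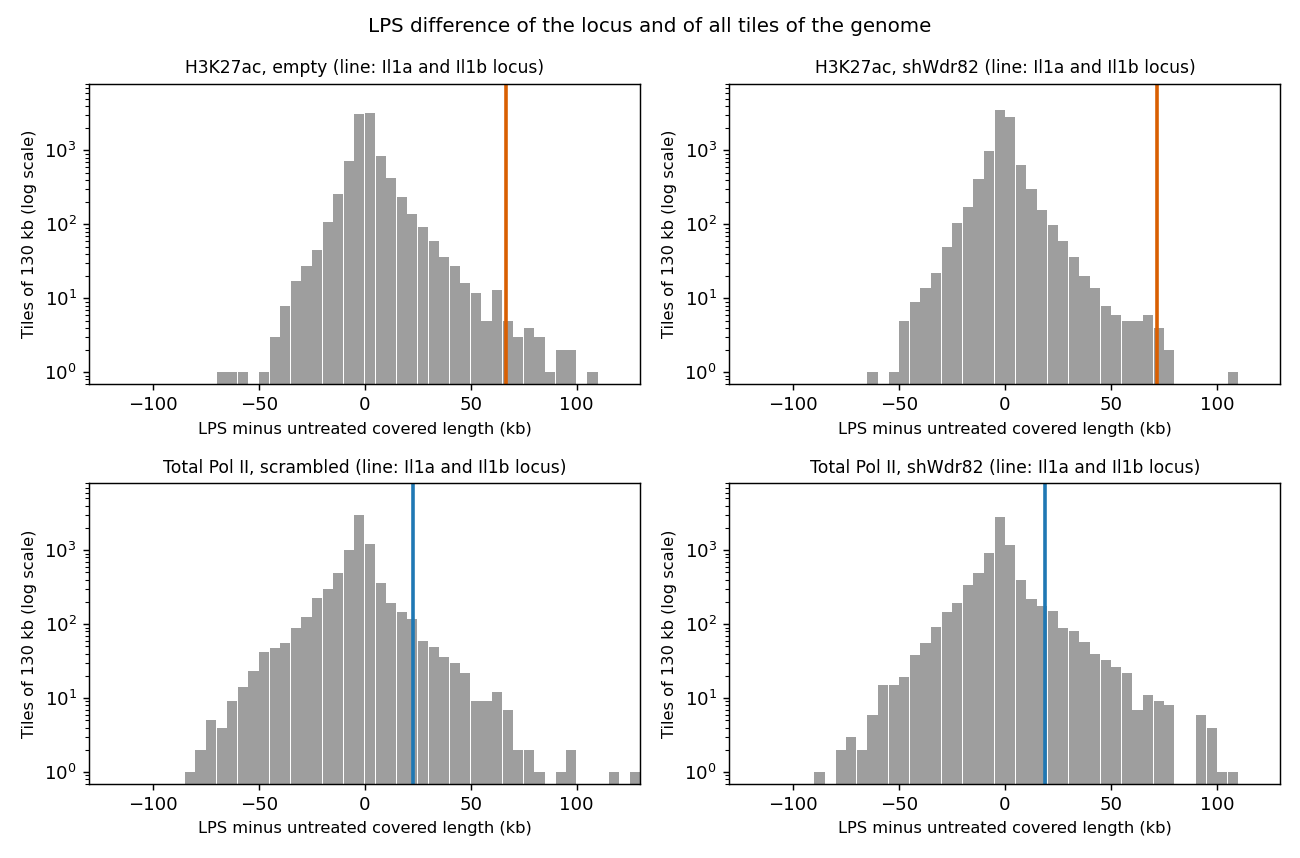
LPS minus untreated covered length in kb for all tiles of 130 kb (grey, log scale for the number of tiles), with the locus as a coloured line, for H3K27ac and total Pol II in each vector. The locus is far in the tail for H3K27ac, at 66.7 and 71.6 kb, and less so for total Pol II, at 22.6 and 18.7 kb. All peaks were counted, whatever their score.

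Total Pol II was listed over Il1b with 45 min of LPS and not before. In untreated cells of both vectors every total Pol II peak of the window lay below Il1a. In scrambled LPS cells the Il1b peak ran from 129188409 to 129197396, 8988 bp, and in shWdr82 LPS cells from 129185560 to 129200569, 15010 bp. Both scored 3100, a value that 4.87% and 4.78% of the peaks of these lists reached. Of such peaks at or above 3100, 21.8% and 21.6% overlapped no H3K4me3 peak of any list, so Il1b was not alone among them in having no H3K4me3 peak. The covered length of the window was 9.98 kb untreated and 32.6 kb with LPS in scrambled cells, and 6.91 and 25.6 kb in shWdr82 cells. These are 3.27-fold and 3.70-fold differences. Tiles at least 1.5-fold higher with LPS made up 16.6% and 21.6%, while the median tile ratio of LPS to untreated was 0.604 and 0.609. A gain as large in kb was found in 3.87% and 7.53% of tiles. When peaks had to score at least 100, the gain was 7.58 kb in scrambled cells (15.4 against 7.78 kb). In shWdr82 cells it was then 15.4 kb (20.5 against 5.11 kb), so which vector gained more depended on low-scoring peaks.

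An element upstream of Il1b also carried total Pol II with LPS alone. It coincides with the highest-scoring untreated H3K27ac peak and with an H3K4me1 region. Its total Pol II peak ran from 129205056 to 129207962 with a score of 388 in scrambled cells, and from 129204667 to 129208401 with a score of 681 in shWdr82 cells. In scrambled cells 7.66 kb without a peak separated it from the gene's own peak. Of 10 merged total Pol II regions, 2 were held by both LPS libraries alone, this element and Il1b, against 5.04% of 37496 over the genome. Another 1, below Il1a from 129113064 to 129114711, was held by both scrambled libraries alone, against 1.29% over the genome, and its scores were 85.7 and 53.9.

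The Il1b total Pol II peak was wider with shWdr82. It was 1.67 times as wide as in scrambled LPS cells, reaching 4441 bp against 1592 bp below the low edge of the gene and 3569 bp against 396 bp above its high edge. It thus extended further past both the gene end and the gene start. Among 11844 total Pol II peaks that overlapped 1 to 1 between these lists, 11.4% were at least 1.5 times as wide in shWdr82 LPS cells, the median ratio was 0.982, and 8.55% had a ratio as high as that of Il1b. The extended part reached the H3K4me1 region below the gene, where scrambled LPS cells had no total Pol II peak.

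Below Il1a, total Pol II was present before LPS. A peak over the H3K4me3 site scored 899 in scrambled untreated cells (129120716 to 129124205) and 205 in shWdr82 untreated cells (129121131 to 129124481). In scrambled LPS cells that position lay under a peak that ran on into Il1a, and in shWdr82 LPS cells it had none. Further down, the region from 129107447 to 129112670 was the only 1 of the 10 held by all 4 libraries, against 28.8% of 37496 over the genome. It scored at most 450 in scrambled untreated, 229 in scrambled LPS, 133 in shWdr82 untreated and 117 in shWdr82 LPS cells. Total Pol II scores were thus lower with shWdr82 than with the scrambled hairpin at both positions, and a remaining peak in scrambled untreated cells (129106374 to 129107330) scored 68.6.

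At Il1a total Pol II was weaker and differed between the vectors. In scrambled LPS cells 3 peaks in close succession, with scores of 58.1, 67.2 and 80.9, covered 98.9% of the Il1a interval. In shWdr82 LPS cells no total Pol II peak overlapped it. These scores lie near the lowest value of the lists, and 92.7%, 86.2% and 78.7% of the peaks of that list scored as high. Between the genes, shWdr82 LPS cells had a pair of total Pol II peaks that no other library had. They ran from 129144622 to 129146499 with a score of 95.9 and from 129162979 to 129166163 with a score of 93.3. All 5 of these peaks fell below a score of 100. Merged total Pol II regions held by 1 library alone were 5 of 10 in the window and 35.3% of 37496 over the genome, so they were common.

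Ser2P was listed in the window with LPS and in neither untreated library. It covered 9.15 kb in scrambled LPS and 12.4 kb in shWdr82 LPS cells. Tiles at least 1.5-fold higher with LPS made up 28.7% of 8910 in scrambled and 32.1% of 8891 in shWdr82 cells, so the gain at this fold was common. With 0 kb untreated, any peak passes this fold. A gain as large in kb was found in 4.51% and 7.91% of tiles. The median tile ratio of LPS to untreated was 0.533 and 0.529. All 3 merged Ser2P regions were held by both LPS libraries alone, against 4.32% of 30111 over the genome. They lay at the end of Il1b, inside Il1a, and across the low edge of Il1a.

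At Il1b the Ser2P peaks lay over the gene end and below it rather than over the whole gene. In scrambled LPS cells a peak from 129187831 to 129190545 scored 1823, and a smaller one from 129185718 to 129186738 scored 64.9, with 1092 bp between them. In shWdr82 LPS cells 1 peak from 129185787 to 129191194 scored 3100. That peak, 5408 bp wide, overlapped both scrambled peaks, which together spanned 4828 bp from their outer edges, a ratio of 1.12. The scrambled pair reached as far below the gene, 4283 bp against 4214 bp. The larger scrambled peak alone was 2715 bp wide, so most of the difference from it was the joining of 2 calls into 1.

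**Figure D4:**
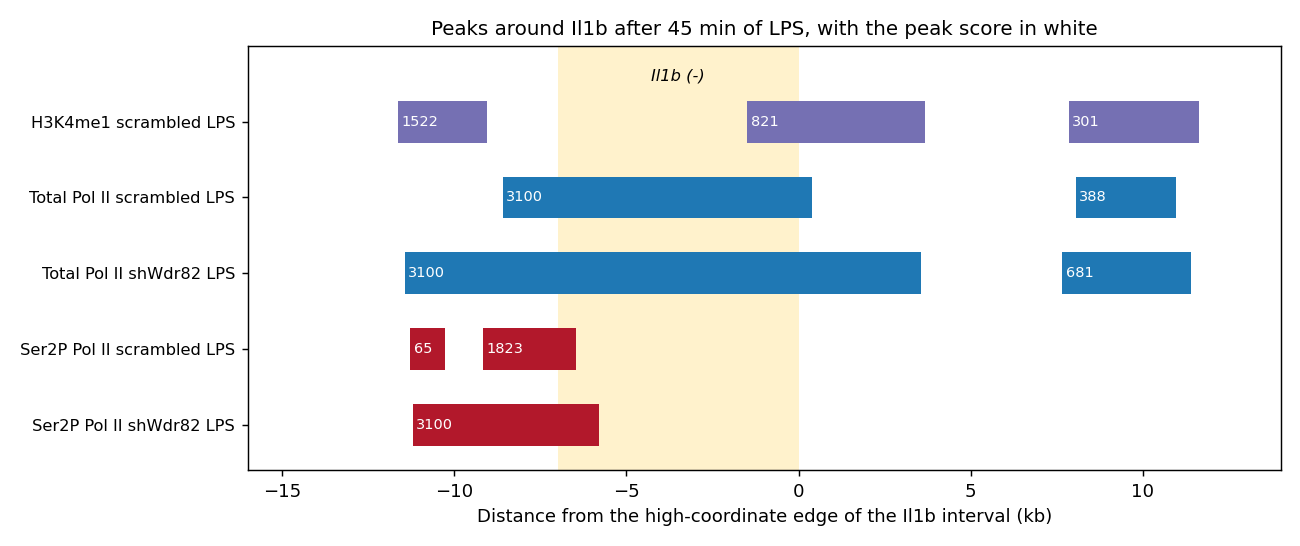
Peaks around Il1b after 45 min of LPS as distance in kb from its high-coordinate edge, with each score in white; the gene reads from right to left. The total Pol II peak spans 8988 bp in scrambled and 15010 bp in shWdr82 cells, and Ser2P lies at the gene end on the left.

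At Il1a the Ser2P peaks lay in the part of the gene near its end. One ran across the low edge of the gene, from 129122119 to 129125588 with a score of 91.1 in scrambled LPS cells, and from 129121805 to 129127001 with a score of 253 in shWdr82 LPS cells. The other lay inside the gene, from 129127079 to 129129022, and scored 73.8 and 70.3. The former also overlapped the H3K4me3 peak on the Ckap2l side, so Ser2P at the end of Il1a and at that site cannot be told apart. Ser2P covered 23.0% of the Il1a interval in scrambled and 34.5% in shWdr82 LPS cells, and 7.79% and 17.1% of Il1b.

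H3K36me3 was listed over neither Il1a nor Il1b in any library, untreated or after 45 min of LPS. Its only wide peak lay below Il1a, on the side of Ckap2l, and extended beyond the window. It ran to 129117428 in scrambled untreated cells with a score of 1321, to 129117439 in scrambled LPS cells with a score of 1894, and to 129117430 in shWdr82 LPS cells with a score of 86.2. The borders were nearly the same in these 3 libraries while the score was far lower in shWdr82 LPS cells. A small peak below Il1a, from 129120110 to 129122185 with a score of 63.2, was listed in scrambled untreated cells. In shWdr82 untreated cells no H3K36me3 peak overlapped the window, and the nearest to Il1a lay 85.3 kb away. The covered length of 0 kb against 19.5 kb in scrambled untreated cells was past 1.5-fold, as were 10.6% of 7157 tiles in that direction. A difference as large in kb was found in 4.07%. The LPS gain of 17.4 kb in shWdr82 cells was also past 1.5-fold, as were 6.74% of 7093 tiles, and 3.74% had a gain as large in kb. That gain rests on the single peak with a score of 86.2, and it was 0 kb when peaks had to score at least 100 or when the gene intervals alone, with 5000 bp on either side, were counted. With all peaks counted over the whole window, this H3K36me3 difference between untreated libraries was the 1 of 12 shWdr82 comparisons of covered length past 1.5-fold, whereas 7 of 12 LPS comparisons were, all of them higher with LPS and the H3K36me3 gain among them. When peaks had to score at least 100, the shWdr82 comparisons of untreated total Pol II (-2.66 kb), H3K36me3 after LPS (-17.4 kb) and Ser2P after LPS (7.89 kb) also passed, and over the gene intervals that of total Pol II after LPS did (-9.89 kb). The last of these changed sign with the score minimum, from -7.03 kb with all peaks to 5.15 kb. With all peaks counted, tiles past 1.5-fold in the same direction made up 17.5%, 6.90%, 34.8% and 20.2% for these comparisons, in the order given. Such differences were thus common for total Pol II and Ser2P. Shares of tiles under the alternative settings are not given here.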

How the data were processed

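The data are 24 peak lists, 1 per library, 4 for each of 6 antibodies. Per the submitters' processing notes, Bowtie 0.12.7, MACS 1.4 and mm9 were used; settings, input libraries and read depth were not given in the sources used here. Each library had a peak list of its own. The deposited score of each peak is the authors' own peak caller value, from 50.0 to 3233.06, and served to describe, order or select peaks of a list; where scores of several lists stand side by side they are descriptions, since depth is unknown. Peak positions are other values the authors deposited, printed here counted from 1.

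Covered length is the length of the window under the union of a library's peaks. Peaks of the 4 lists of an antibody were merged where they shared at least 1 bp. Tiles of 130 kb with a peak in either library gave the background, and 1.5-fold marked a difference. The members, window, gene intervals and choice of comparisons were set with earlier results of these data known. Positions were named for merged regions that overlap the gene intervals or lie within 2500 bp of them, and elsewhere for the up to 10 highest-scoring regions each of H3K27ac, of H3K4me1 and of total Pol II or Ser2P; other regions, such as those of H3K36me3 and the lowest-scoring ones, were named after its values were seen. Promoters and neighbouring gene names came from RefSeq (GRCm38.p6); no coordinate was converted, so lists of other genes were not analysed here. Functions were tested on simulated data. Python 3.11.15, numpy 2.4.6, pandas 2.3.3 and matplotlib 3.10.9 were used. The alternatives tried were a minimum score, equal list lengths, bridged gaps, gene intervals alone and a minimum overlap.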

Additional observations from a re-analysis of the deposited data

Results flagged for a closer look

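LPS differences of covered length pointed in opposite directions in the control and shWdr82 cells for 2 antibodies, and these differences between vectors were not tested. For H3K4me3 the LPS minus untreated length was -0.387 kb in empty vector and 0.0730 kb in shWdr82 cells, both from the single peak on the Ckap2l side. For H3K36me3 it was -2.06 kb in scrambled and 17.4 kb in shWdr82 cells, where the untreated library had no peak in the window.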

How the results depend on the processing

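No paired analysis was possible because each group has 1 library. Of 96 values for covered length under 4 alternatives, 89 kept their side of 1.5-fold. No difference that was past 1.5-fold with all peaks counted over the whole window changed sign, but 4 values of smaller ones did. Total Pol II after LPS, shWdr82 against scrambled, went from -7.03 to 5.15 kb (20.5 against 15.4 kb) with a score of at least 100. The H3K36me3 LPS difference in scrambled cells went from -2.06 to 0.0110 kb with that minimum and with equal list lengths, and that of H3K4me1 from 2.74 to -0.0560 kb over the gene intervals. The H3K27ac and total Pol II gains with LPS kept their sign in both vectors. The total Pol II gain in scrambled cells fell from 22.6 to 7.58 kb with a score of at least 100. With a score of at least 100, the H3K36me3 LPS difference in shWdr82 cells became 0 kb and the shWdr82 difference after LPS became -17.4 kb. The same minimum took the total Pol II difference of shWdr82 and scrambled untreated cells to -2.66 kb, past 1.5-fold, and the Ser2P difference after LPS to 7.89 kb (10.6 against 2.71 kb), since low-scoring peaks drop out. With the gene intervals and 5000 bp on either side, the H3K36me3 LPS difference was -2.08 kb in scrambled and 0 kb in shWdr82 cells, and total Pol II after LPS was 9.89 kb shorter with shWdr82 (-9.89 kb, 15.0 against 24.9 kb), since less of the window was counted. Of 96 region counts, 87 stayed within 1.5 times. With a score of at least 100, regions held by both LPS libraries alone became 1 for H3K27ac and 1 for Ser2P, those of both control libraries alone became 0 for H3K4me1, 1 for H3K36me3 and 0 for total Pol II, and those of both untreated libraries alone 1 for total Pol II. The total Pol II regions of both control libraries were also 0 with equal list lengths and with gaps of up to 1000 bp bridged. When a library had to cover at least 25% of a region, 5 H3K27ac regions were held by both LPS libraries alone. Unknown depth limits every comparison between libraries, and peaks under a score of 100 decide the total Pol II values at Il1a.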
